A study of Homo sapiens with 12 samples.

Results

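The genes described here are 42 genes of ribosome biogenesis and the nucleolus, measured by RNA sequencing in MRC5 cells, a line of fibroblasts from human embryonic lung. They were chosen by symbol, taking the Ensembl identifier with the highest total count where a symbol occurs more than once. All 42 were found among the 57500 genes of the count table, and all 42 were among the 16251 genes that passed the filter on low counts. The 12 libraries formed 4 groups of 3. Prol cells were proliferating. Sen(IR) cells had been made senescent by 20 Gy of X-rays. Sen(IR)+UK5099 cells were irradiated and then kept in 100 μM UK5099, an inhibitor of the mitochondrial pyruvate carrier. Sen(IR)+CTPI2 cells were irradiated and then kept in CTPI2, an inhibitor of the mitochondrial citrate carrier SLC25A1, for which the methods list 15 and 30 μM without saying which was sequenced. The methods place the addition of inhibitors 1 day after irradiation and say that they stayed in the medium for 12 days. Irradiated cells in general are said to be collected 10 to 12 days after irradiation. The collection day of each library is not given. All groups share the same cell line. The legends of the study describe its RNA sequencing as coming from independent experiments or conditions. The labels do not tie each library to a culture, so p-values measure the spread between libraries within groups, pooled over the 4 groups.

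Ribosomes are assembled in the nucleolus, where RNA polymerase I transcribes a long precursor of the ribosomal RNAs. Small nucleolar ribonucleoproteins (snoRNPs) of the box C/D and box H/ACA classes then guide its methylation and pseudouridylation, the small subunit processome folds and cleaves it, and further factors carry the small (40S) and large (60S) subunits to maturity. Growing cells spend much of their RNA and protein synthesis on this pathway, and the transcription factor MYC, which binds DNA together with MAX, is a known activator of many of its genes. Irradiated fibroblasts that have entered senescence no longer divide, while they remain metabolically active and secrete inflammatory factors.

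Levels are given as CPM, counts scaled to 1000000 per library with library sizes adjusted by the trimmed mean of M values (TMM). Library totals ran from 20597736 to 28245693 counts, and mitochondrial genes held 2.36 to 4.23% of the counts. Replicates varied by 6.12% beyond counting error across the genes tested (the square root of the common dispersion). The lowest count of any of the 42 genes in any library was 124 (NPM3), and their coefficients of variation within a group ran from 0.345 to 15.6%, with a median of 4.53%. All 10 fibroblast markers were present in every library, summing to 27181 to 28545 CPM in Sen(IR) and 15778 to 16995 CPM with UK5099. The 10 markers of epithelial, endothelial and blood cells summed to at most 5.53 CPM, and CDH1, KRT5, PECAM1, CDH5, PTPRC and CD3E were at 0 in at least 1 library. MKI67, a marker of cycling cells, was 209.7 to 271 CPM in Prol. Its level was 9.27 to 12.6 CPM in Sen(IR), 11.1 to 13.8 CPM with CTPI2, and 0.63 to 1.37 CPM in the UK5099 libraries.

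The E-box CACGTG, the DNA word to which MYC and MAX bind, was searched in the promoter windows of RefSeq (GRCh38.p14), which reach from 250 bases before to 50 bases after a transcription start. The word reads the same on both strands. RefSeq windows were matched by symbol to 36 of the 42 genes, and the other 6 (MYC, TCOF1, NOP58, NOLC1, RRP12 and BOP1) had none. CACGTG was present in 17 of the 36 (47.2%), against 8.77% of the 27305 genes with a window and 12.4% of the 10987 of those that were tested here. All 17 had a copy that began within 100 bases of the start. NOP10 and UTP18 each had 2 copies in their window. The looser word CANNTG, which contains CACGTG, was in 80.6% of the 36, against 73.1% of all genes with a window and 67.2% of those tested. The letters are a description of these windows and do not show binding. The 5 stretches of 150 bases shown here each run from 120 bases before to 30 bases after the start, with CACGTG in capitals. The first 3 belong to the genes with the largest falls in senescence among those with a window, and the last 2 to NPM3 and NOP56, genes called lower with UK5099, whose windows held no CACGTG. They lie at chr19:39846350-39846499 (FBL, minus strand), chr4:4289992-4290141 (LYAR, minus strand, 1 of its 2 windows), chr12:101279985-101280134 (UTP20, plus strand), chr10:101783417-101783566 (NPM3, minus strand) and chr20:2652512-2652661 (NOP56, plus strand).
FBL: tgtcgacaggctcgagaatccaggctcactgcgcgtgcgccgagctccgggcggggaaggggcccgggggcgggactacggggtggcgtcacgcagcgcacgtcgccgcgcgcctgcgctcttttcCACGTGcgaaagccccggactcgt
LYAR: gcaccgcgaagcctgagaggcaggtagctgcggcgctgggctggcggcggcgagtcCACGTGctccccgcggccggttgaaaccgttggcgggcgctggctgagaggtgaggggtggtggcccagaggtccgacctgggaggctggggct
UTP20: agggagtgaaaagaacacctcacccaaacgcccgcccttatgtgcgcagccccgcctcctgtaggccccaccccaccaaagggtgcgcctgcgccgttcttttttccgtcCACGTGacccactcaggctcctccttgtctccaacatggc
NPM3: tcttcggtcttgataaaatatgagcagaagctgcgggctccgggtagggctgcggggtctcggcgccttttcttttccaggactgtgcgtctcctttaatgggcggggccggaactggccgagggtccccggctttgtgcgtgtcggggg
NOP56: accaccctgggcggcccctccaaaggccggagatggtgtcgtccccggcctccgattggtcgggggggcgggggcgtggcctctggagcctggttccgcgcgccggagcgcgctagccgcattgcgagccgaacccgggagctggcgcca
Counted from the start as base 1, the word began at base 7 in FBL, 10 bases before the start in UTP20 and 64 bases before the start in LYAR.

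**Figure D1:**
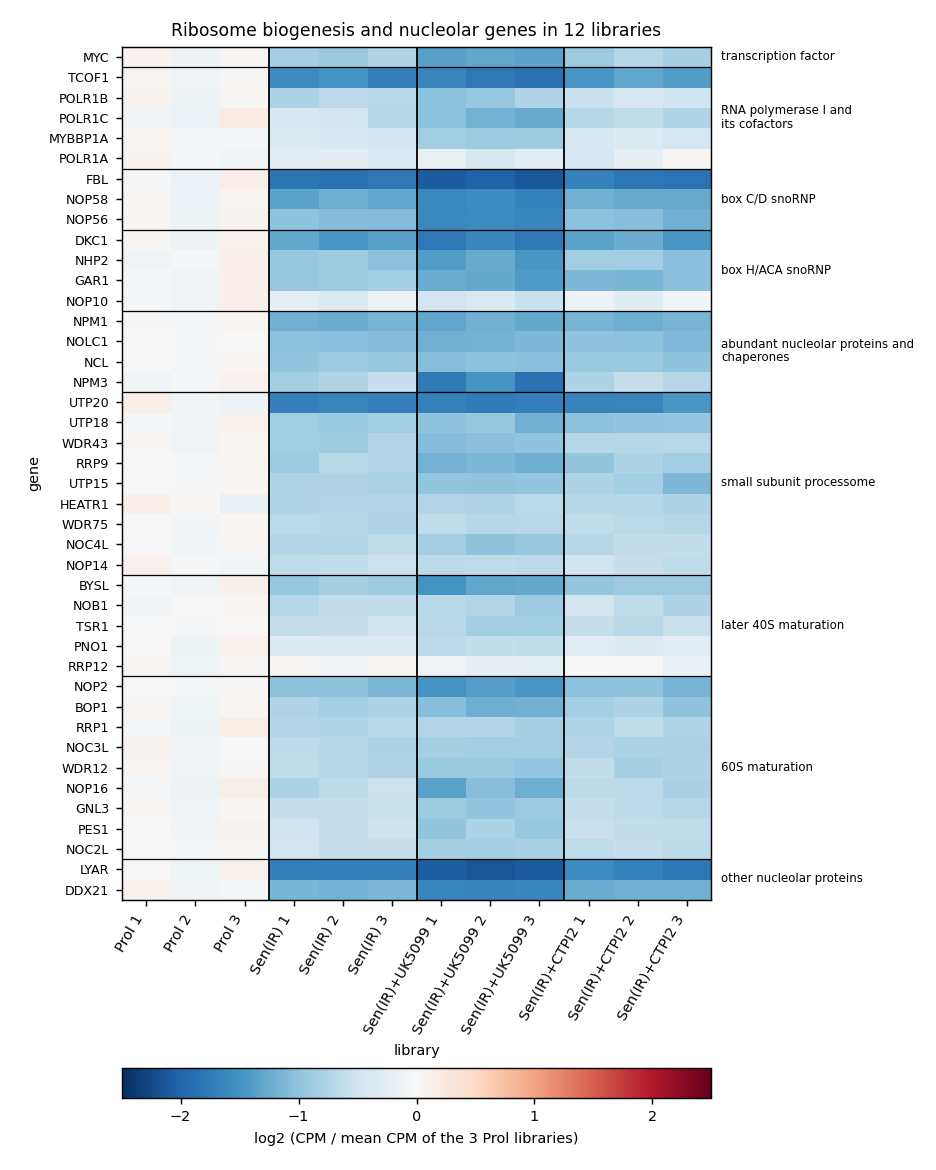
Level of each of the 42 genes (rows, grouped by role) in each of the 12 libraries (columns), as the log2 ratio of its CPM to the mean CPM of the 3 Prol libraries. Blue cells fill the 9 irradiated columns for nearly all genes, RRP12 stays near 0, and the UK5099 columns are the darkest for genes such as NPM3, LYAR and DDX21.

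As a sum, the 42 genes made up 5480 to 5914 CPM in the Prol libraries and 2928 to 2957 CPM in the Sen(IR) libraries. The sum was 2904 to 2964 CPM with CTPI2 and 2551 to 2609 CPM with UK5099. The Prol libraries lay above all others, the UK5099 libraries below all others, and the Sen(IR) and CTPI2 libraries overlapped. CPM is a share of the RNA that was sequenced. A lower value can stand for less RNA of the gene per cell, for fewer expressing cells or for more RNA of other genes. These readings cannot be told apart in bulk samples.

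Levels between genes were compared per kilobase of annotated exon (RPKM). In Prol the highest were NPM1, the histone chaperone nucleophosmin, at 169 RPKM, and NCL, the RNA-binding protein nucleolin, at 140.1 RPKM. FBL followed at 50.3 RPKM, and NOP58, GNL3, NOLC1, DDX21 and NOP56 came next. Of these, NOP58, GNL3 and NOLC1 were at 44.7, 44.6 and 43.7 RPKM and DDX21 and NOP56 at 39.1 and 38.9 RPKM, differences smaller than the SDs of 1.05 to 3.69 RPKM between libraries. The lowest were the polymerase subunits POLR1C, POLR1B and POLR1A at 3.83, 3.46 and 3.38 RPKM, and MYC stood at 6.99 RPKM in rank 35 of 42. Ranks depend on the length used. Per kilobase of the longest transcript, NPM1, NCL and FBL stayed highest and POLR1A and POLR1B lowest in Prol. POLR1C was then at rank 36, MYC at 31, DDX21 at 4 and NOLC1 at 10. In Sen(IR) the order kept NPM1 (73.4 RPKM) and NCL (72.8 RPKM) at the top with almost equal levels, while FBL moved from rank 3 to rank 15, LYAR from 12 to 24, UTP20 from 32 to 41 and RRP12 from 39 to 31. NPM1 has 49 annotated pseudogenes and only uniquely mapped reads were counted, so its level is uncertain.

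**Figure D2:**
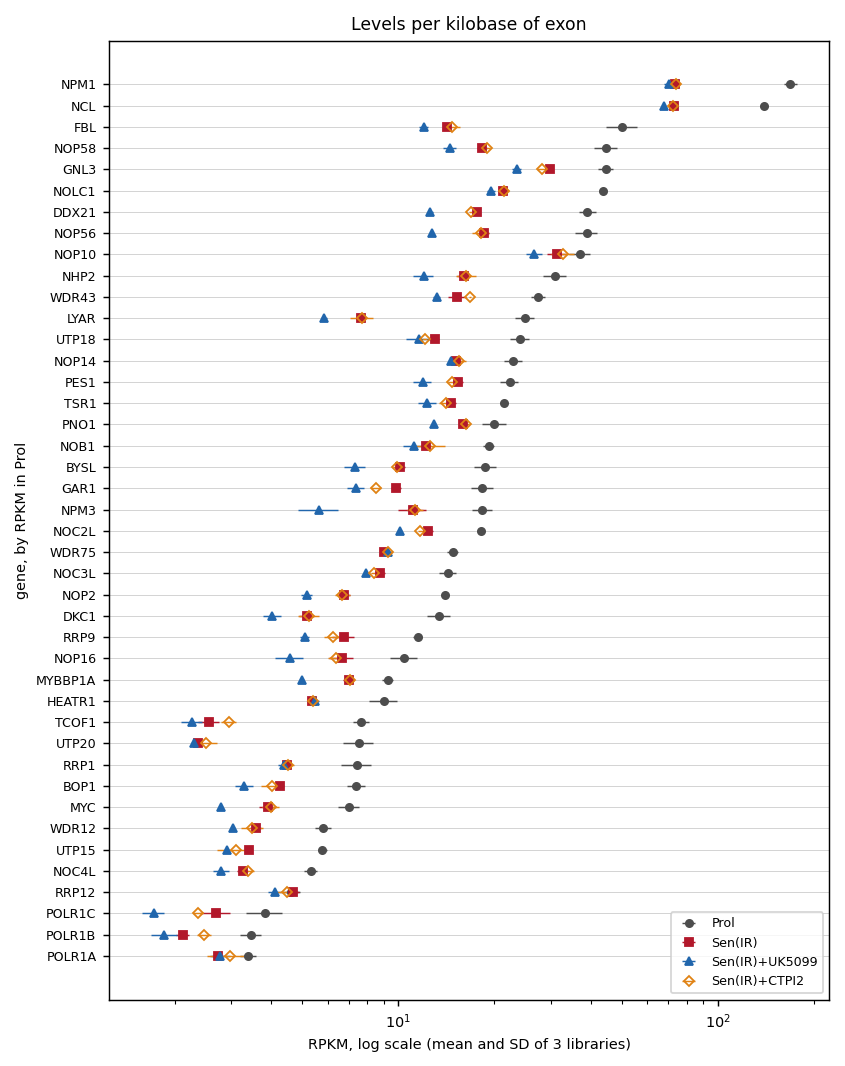
Mean level per kilobase of exon (RPKM, log axis) of each gene in the 4 groups, with the SD of 3 libraries as a bar, ordered by the level in Prol. NPM1 and NCL stand apart at the top in every group, and the black Prol points lie to the right of the senescent points for every gene but RRP12.

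The comparison of Sen(IR) with Prol asked how the pathway differed between growing cells and cells made senescent by irradiation. Transcripts of 37 of the 42 genes fell, none rose, and 5 were not called. Calls required an adjusted p under 0.05 in edgeR's quasi-likelihood test and an absolute log2 fold change over 0.5. Over all genes tested 22.4% were called lower and 24.8% higher. The median log2 fold change was -0.75 for the 42 genes and 0.01 for all genes tested, and the 42 values ran from -1.82 to 0.02. Without the limit on fold change 41 of the 42 were lower at an adjusted p under 0.05, against 34.5% of all genes. In 41 of the 42 every Sen(IR) library lay below every Prol library, against 35.5% of all genes. The exception in both counts was RRP12. In the same libraries the 5 proliferation markers, all called lower, summed to 1320 to 1491 CPM in Prol and 87.7 to 97.7 CPM in Sen(IR). CDKN1A, the cyclin-dependent kinase inhibitor p21, was 289 to 337 CPM in Prol and 1042 to 1073 CPM in Sen(IR). Upper-quartile scaling, which moved the median of all genes to 0.135, left 31 of the 37 past the fold limit, without NOC2L, GNL3, NOP14, POLR1C, TSR1 and PES1. Irradiation, growth arrest and time in culture cannot be told apart by this design.

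MYC itself measured 45.3, 39.1 and 43.6 CPM in the Prol libraries and 23.7, 22.3 and 25.3 CPM in the Sen(IR) libraries. The groups did not overlap. The log2 fold change was -0.84 (SE 0.0747, adjusted p = 1.04e-09), a level 1.8-fold lower in Sen(IR).

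Among the genes of RNA polymerase I and its cofactors 3 of 5 fell, with a median of -0.52. The largest fall was in TCOF1, which encodes treacle, a nucleolar cofactor of ribosomal DNA transcription. TCOF1 measured 92.0, 82.1 and 88.8 CPM in Prol and 29.5, 31.1 and 26.9 CPM in Sen(IR). The level was 3.0-fold lower, with a log2 fold change of -1.58 (SE 0.0719, adjusted p = 8.67e-15). POLR1B, the second-largest subunit, fell by less and was 1.64-fold lower. POLR1C, a subunit shared with RNA polymerase III, had a log2 fold change of -0.52, close to the limit, and was under it without Prol replicate 3 (-0.41) or Sen(IR) replicate 3 (-0.43). POLR1A, the largest subunit, at -0.32 and MYBBP1A, a nucleolar MYB-binding protein, at -0.41 were lower at adjusted p values of 0.00208 and 2.55e-06 but did not reach the limit on fold change. POLR1A still showed no overlap, with 63.4 to 70.8 CPM in Prol and 51.1 to 54.9 CPM in Sen(IR).

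The 3 genes of box C/D snoRNP core proteins among the 42 all fell, with a median of -1.29. SNU13, which was kept in the list of further factors, was at -0.45 and not called. FBL encodes fibrillarin, the methyltransferase of these particles, and had the largest change of all 42 genes. It measured 105, 97.5 and 121 CPM in Prol and 30.3, 29.8 and 31.2 CPM in Sen(IR). That was 3.53-fold lower, with a log2 fold change of -1.82 (SE 0.0729, adjusted p = 9.25e-16). NOP58 and NOP56, the paired scaffold proteins of the particle, had log2 fold changes of -1.29 and -1.07, or levels 2.44-fold and 2.09-fold lower in Sen(IR). NOP56 and NOP58 carry 5 and 4 snoRNA genes within their bounds. In all, 8 of the 42 genes carry such genes, GNL3 the most with 6. Host levels are less certain where snoRNA genes overlap host exons.

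Of the 4 genes of box H/ACA snoRNP proteins, 3 fell. DKC1, which encodes dyskerin, the pseudouridine synthase, measured 125, 112 and 132 CPM in Prol. In Sen(IR) it measured 49.7, 44.7 and 48.2 CPM. The groups were far apart, and the level was 2.59-fold lower (log2 fold change -1.37, SE 0.0711, adjusted p = 9.15e-14). NHP2 and GAR1, structural proteins of the same particle, had log2 fold changes of -0.95 and -0.90. NOP10, the gene of a small protein, was not called at -0.23, with 55.0 to 63.3 CPM in Prol and 46.0 to 52.8 CPM in Sen(IR). Transcripts for proteins of 1 particle therefore differed in the size of their change, from -1.37 to -0.23. Reads of NHP2 are less certain, since 28.05% of its exon bases are shared with RMND5B.

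The 4 genes of abundant nucleolar proteins and chaperones all fell. NPM1 measured 1373, 1359 and 1478 CPM in Prol and 609, 596 and 625 CPM in Sen(IR), a log2 fold change of -1.20. NCL measured 1252, 1212 and 1284 CPM in Prol and 633, 669 and 644 CPM in Sen(IR), a log2 fold change of -0.94. These are the genes that contribute most to the summed level, and neither showed overlap. NOLC1, the snoRNP chaperone Nopp140, had a log2 fold change of -1.04 and NPM3, a relative of nucleophosmin, one of -0.73.

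All 9 genes of the small subunit processome fell, 8 of them by -0.59 to -0.88. UTP20, a very large scaffold protein of the processome, stood apart from these. It measured 84.5, 72.3 and 69.4 CPM in Prol and 23.0, 24.5 and 23.2 CPM in Sen(IR). The level was 3.2-fold lower (log2 fold change -1.68, SE 0.0777, adjusted p = 1.26e-14). UTP18 and WDR43, both processome proteins with WD repeats, had -0.88 and -0.84, and HEATR1, WDR75 and NOP14 had -0.74, -0.72 and -0.59. NOP14 was under the limit at -0.47 with upper-quartile scaling. Exon bases are shared with neighbouring genes for 23.12% of HEATR1 and 20.71% of NOP14.

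In later maturation of the small subunit 3 of 5 genes fell. BYSL, the bystin protein of pre-40S particles, had a log2 fold change of -0.89, NOB1, the nuclease that trims the end of 18S rRNA, one of -0.65, and the pre-40S factor TSR1 one of -0.56. TSR1 was under the limit at -0.44 with upper-quartile scaling. TSR1 shares 26.91% of its exon bases with other genes, SRR among them, and NOB1 shares 20.42% with NQO1-DT. PNO1, the partner of NOB1, was lower at -0.33 without reaching the limit. RRP12, a nuclear export factor, measured 36.5 to 41.5 CPM in Prol and 37.7 to 41.5 CPM in Sen(IR). The libraries of RRP12 overlapped, its log2 fold change was 0.02 with a 95% interval from -0.13 to 0.16 (adjusted p = 0.859), and its sign changed when single libraries were left out.

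All 9 genes of large subunit maturation fell, with a median of -0.70. NOP2, an rRNA methyltransferase, had the largest change at -1.04, although 54.41% of its exon bases are shared with another annotated gene. PES1, BOP1 and WDR12, which form a complex needed for processing of the large subunit, had log2 fold changes of -0.54, -0.80 and -0.70. GNL3, the GTPase nucleostemin, had -0.58, and NOC2L and NOC3L, which travel with pre-60S particles, had -0.54 and -0.71. Of these 9, PES1, NOC2L and GNL3 were under the limit with upper-quartile scaling, at -0.42, -0.42 and -0.46, and PES1 also without Prol replicate 3, at -0.49. RRP1 had -0.73. NOP16, another pre-60S factor, measured 28.3, 27.0 and 32.5 CPM in Prol and 17.0, 18.7 and 20.2 CPM in Sen(IR), a log2 fold change of -0.65.

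Both genes of the remaining nucleolar proteins fell. LYAR, a zinc finger protein of the nucleolus, measured 57.0, 53.5 and 61.7 CPM in Prol and 17.5, 17.5 and 17.6 CPM in Sen(IR). The 3 senescent libraries of LYAR were nearly identical, 3.27-fold below Prol (log2 fold change -1.71, SE 0.0749, adjusted p = 4.49e-15). DDX21, a nucleolar RNA helicase, had a log2 fold change of -1.15.

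**Figure D3:**
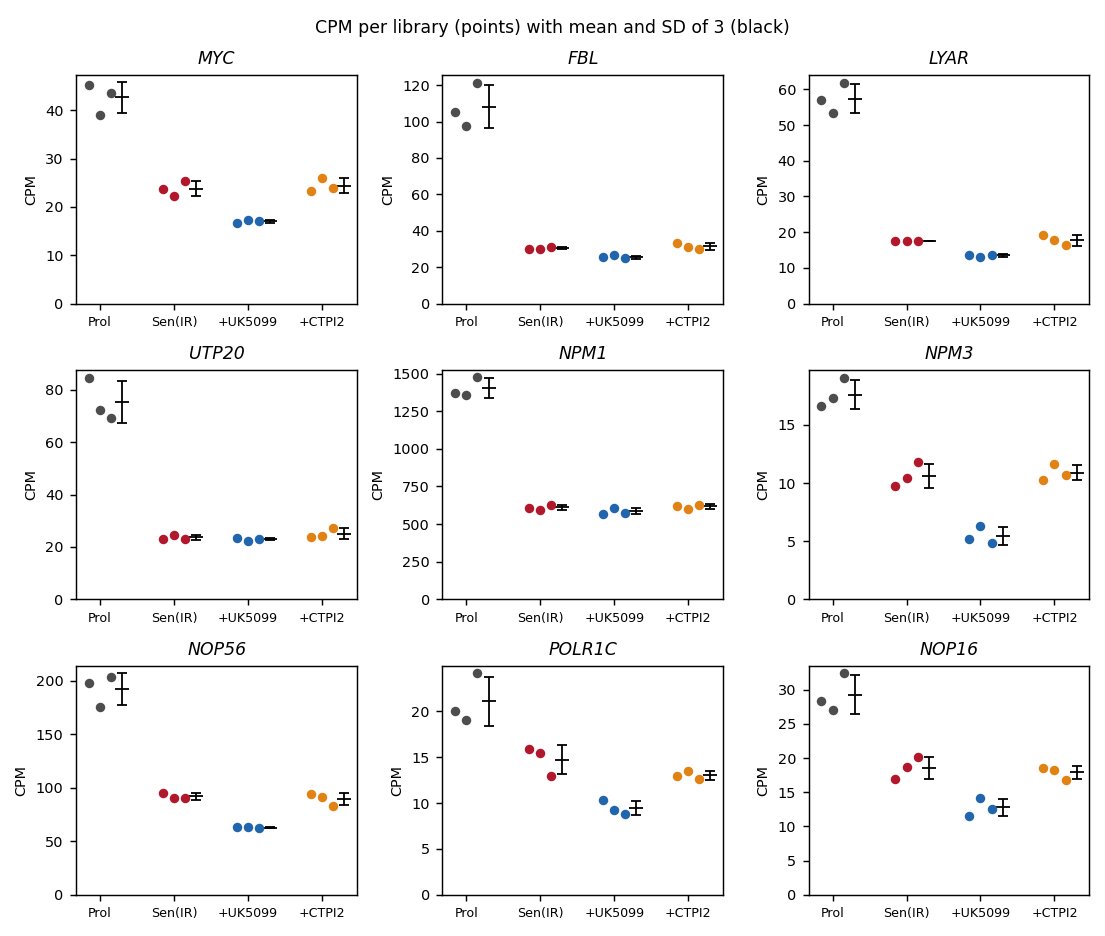
CPM in every library (points) with the mean and SD of 3 (black) for 9 of the genes. FBL, LYAR, UTP20 and NPM1 have their main drop between Prol and Sen(IR), from 108 to 30.5 CPM in FBL for example. With UK5099 the points of FBL and LYAR lie lower again by less, those of UTP20 and NPM1 overlap with Sen(IR), and NPM3, NOP56, POLR1C and NOP16 are the genes called lower.

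The comparison of Sen(IR)+UK5099 with Sen(IR) asked how irradiated cells kept in UK5099 differed from irradiated cells without an inhibitor. NPM3, POLR1C, NOP56 and NOP16 fell and none of the 42 rose. These 4 are 9.52% of the 42 genes, against 12.1% called lower and 8.76% called higher over all genes tested, so the share called was near the background. Without the limit on fold change 27 of the 42 (64.3%) were lower at an adjusted p under 0.05, where 23.5% of all genes were lower. In 32 of the 42 all UK5099 libraries lay below all Sen(IR) libraries, against 28.6% of all genes. The median SE was 0.0725 for the 42 genes and 0.103 for all genes tested. Counts without a fold limit are thus reached more easily by the 42, here and in the other comparisons. The log2 fold change was negative for 39 genes, and the median was -0.25 against 0.01 over all genes. The 5 proliferation markers summed to 26.2 to 30.3 CPM with UK5099 and 87.7 to 97.7 CPM in Sen(IR), and the 10 fibroblast markers were lower in sum as given above, 5 of them called lower. The part of either in these differences was not tested.

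NPM3 had the largest change. It measured 9.74, 10.4 and 11.8 CPM in Sen(IR) and 5.17, 6.3 and 4.81 CPM with UK5099. The groups did not overlap, and the level was 1.95-fold lower (log2 fold change -0.97, SE 0.119, adjusted p = 6.85e-07). Its relative NPM1 had a log2 fold change of -0.06 in the same comparison, with overlapping libraries and a 95% interval from -0.16 to 0.04.

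POLR1C measured 15.9, 15.4 and 12.9 CPM in Sen(IR) and 10.3, 9.27 and 8.76 CPM with UK5099. It was 1.57-fold lower, with a log2 fold change of -0.65 (SE 0.108, adjusted p = 3.93e-05). The other subunits showed smaller differences, POLR1B at -0.19 and POLR1A at 0.03, with overlapping libraries in both. POLR1C shares 18.33% of its exon bases with other annotated genes, XPO5 among them.

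NOP56 measured 95.5, 90.0 and 90.1 CPM in Sen(IR) and 62.9, 63.4 and 62.1 CPM with UK5099. The spread within each group was small beside the gap, and the level was 1.46-fold lower (log2 fold change -0.55, SE 0.062, adjusted p = 1.9e-07). Its partners NOP58 (-0.33, adjusted p = 0.000179) and FBL (-0.25, adjusted p = 0.0108) were lower but did not reach the limit. FBL thus had the largest change of the 42 in senescence and a small one with UK5099, at 25.4, 26.5 and 24.9 CPM.

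NOP16 measured 17.0, 18.7 and 20.2 CPM in Sen(IR) and 11.6, 14.1 and 12.6 CPM with UK5099. The libraries did not overlap, and the log2 fold change was -0.54 (SE 0.097, adjusted p = 9.14e-05). NOP16 was under the fold limit at -0.48 without Sen(IR) replicate 3 or without UK5099 replicate 1. It shares 18.57% of its exon bases with ARL10 and HIGD2A.

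Just below the limit on fold change stood DDX21 at -0.49, MYC at -0.48, MYBBP1A at -0.48 and BYSL at -0.46. MYC measured 16.7, 17.3 and 17.0 CPM with UK5099 against 23.7, 22.3 and 25.3 CPM in Sen(IR), without overlap (SE 0.0793, adjusted p = 3.11e-05), and was past the limit at -0.53 without Sen(IR) replicate 2. MYBBP1A likewise passed it at -0.52 without Sen(IR) replicate 3, and DDX21 passed it without Sen(IR) replicate 2 or UK5099 replicate 1. DDX21 measured 164, 161 and 166 CPM in Sen(IR) and 118, 114 and 117 CPM with UK5099.

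By role, adjusted p under 0.05 without the fold limit was reached by all 3 box C/D and all 4 box H/ACA genes, with medians of -0.33 and -0.39. It was reached by 7 of 9 genes of large subunit maturation (median -0.35), by 4 of 5 in later small subunit maturation (-0.24) and by both remaining nucleolar genes (-0.44). The small subunit processome showed 3 of 9 (median -0.17), RNA polymerase I and its cofactors 2 of 5 (-0.19), and the abundant nucleolar proteins and chaperones 1 of 4 (-0.11). Within the processome UTP20 had -0.03, HEATR1 0.02 and WDR75 0.04, with overlapping libraries in each. HEATR1, for example, measured 48.1, 48.9 and 49.1 CPM in Sen(IR) and 49.2, 48.1 and 51.2 CPM with UK5099. The differences between roles were not tested.

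**Figure D4:**
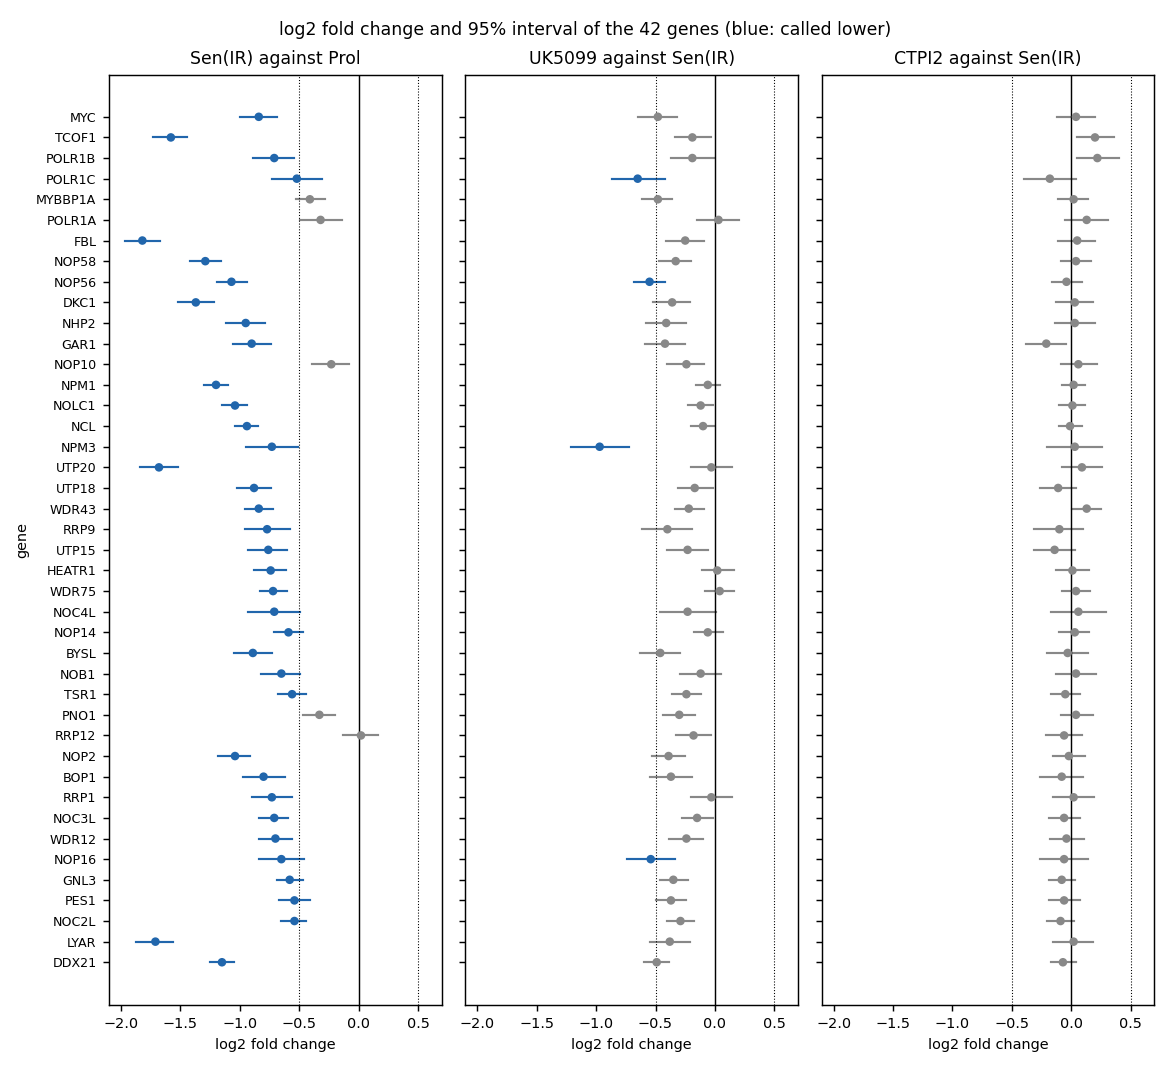
log2 fold change (points) and 95% interval (bars) of the 42 genes in the 3 comparisons, with genes called lower in blue and dotted lines at the fold limit of 0.5. Nearly all points lie left of 0 for Sen(IR) against Prol, most lie slightly left of 0 for UK5099, and all lie near 0 for CTPI2.

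The comparison of Sen(IR)+CTPI2 with Sen(IR) asked the same of CTPI2. None of the 42 genes was called in either direction by edgeR, and DESeq2 called none either. Over all genes tested 0.148% were called lower and 0.0185% higher. At an unadjusted p under 0.05 edgeR gave 3 genes higher and 1 lower, where 2.83% and 4.44% of all genes were. DESeq2 gave 3 genes at that limit. The median log2 fold change was 0.01, and the values ran from -0.21 (GAR1) to 0.22 (POLR1B). The 95% intervals of all 42 lay between -0.40 and 0.40, inside the fold limit of 0.5 in both directions. All CTPI2 libraries lay above all Sen(IR) libraries in 3 genes and below them in 5, where 6.79% and 8.3% of all genes did.

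MYC measured 23.2, 26.0 and 23.9 CPM with CTPI2, overlapping with Sen(IR), and its log2 fold change was 0.04 with a 95% interval from -0.12 to 0.20. NPM3 and NOP56, lower with UK5099, measured 10.3, 11.6 and 10.7 CPM and 94.2, 91.3 and 83.3 CPM with CTPI2, both overlapping with Sen(IR). POLR1B was at 22.1 ± 1.07 CPM with CTPI2 against 19.0 ± 0.889 CPM in Sen(IR) (SD, n = 3 each, adjusted p = 0.499 in edgeR). TCOF1 had a log2 fold change of 0.20 (adjusted p = 0.473). GAR1 was at 16.7 ± 0.639 CPM against 19.3 ± 0.684 CPM (SD, n = 3 each, adjusted p = 0.531 in edgeR). The libraries of these 3 genes did not overlap between groups, and none of the differences passed the test.

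The 2 inhibitors were also set against each other, at doses that differ. Against CTPI2, the UK5099 libraries had lower NPM3, MYC, NOP56 and MYBBP1A, and no gene was called higher, where 11.7% of all genes were called lower and 8.2% higher. At an adjusted p under 0.05 and any fold change 29 of the 42 were lower with UK5099, against 23.4% of all genes. In 32 the libraries did not overlap in this direction, against 27.6% of all genes. The median log2 fold change was -0.30. NPM3 was 2.0-fold lower (log2 fold change -1.0, SE 0.118, adjusted p = 4.01e-07). MYC was 1.43-fold lower (-0.52, SE 0.0785, adjusted p = 1.24e-05), NOP56 1.43-fold lower (-0.51, SE 0.0618, adjusted p = 5.57e-07) and MYBBP1A 1.42-fold lower (-0.50, SE 0.0608, adjusted p = 6.23e-07). MYBBP1A measured 29.8 ± 0.346 CPM with UK5099 and 42.1 ± 1.16 CPM with CTPI2 (SD, n = 3 each). The last 3 sat near the fold limit. With upper-quartile scaling NPM3 alone was called. The same held without CTPI2 replicate 2, where MYC was at -0.47, NOP56 just under the limit and MYBBP1A at -0.48. The test of UK5099 against Sen(IR) and that of CTPI2 against Sen(IR) share the Sen(IR) libraries, so their values are given side by side only.

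**Figure D5:**
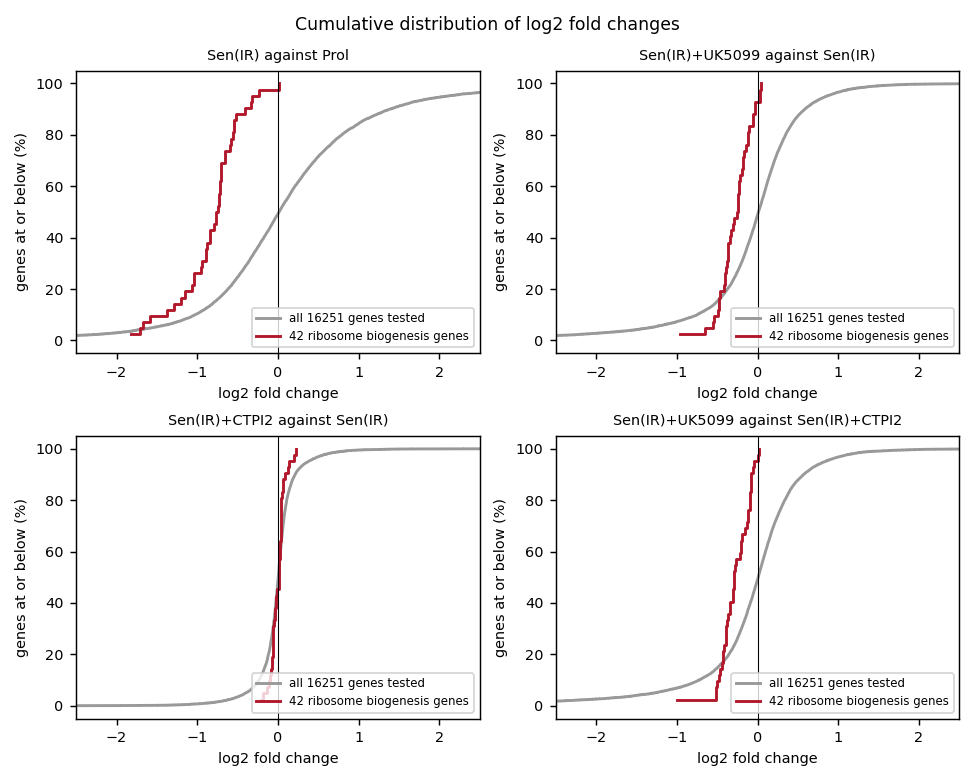
Share of genes (%) at or below each log2 fold change, for the 42 genes (red) and all 16251 genes tested (grey), in the 4 comparisons. The red curve lies left of the grey one for Sen(IR) against Prol (medians -0.75 and 0.01) and, by less, in both comparisons of UK5099, and both rise at 0 for CTPI2 against Sen(IR).

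The sizes of change in senescence and with UK5099 were set side by side over the 42 genes through 2 comparisons that share no library, Sen(IR) against Prol and UK5099 against CTPI2. Pearson's r was 0.105 and Spearman's rho 0.134, and over all genes tested they were -0.0211 and 0.116. These are descriptions across genes, which are not independent replicates. Pairs of values picked as examples go both ways. UTP20 had -1.68 in the first and -0.12 in the second, NPM1 had -1.20 and -0.08, and NPM3 had -0.73 and -1.0. By contrast, NOP56 had -1.07 and -0.51 and DDX21 had -1.15 and -0.42, falls larger than the medians of the 42 in both.

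Of the 17 genes with CACGTG in their promoter window 14 were called lower in Sen(IR), with a median log2 fold change of -0.84. Of the 19 with a window and no CACGTG, 18 were called lower, with a median of -0.72. With UK5099 the medians were -0.35 and -0.23. At an adjusted p under 0.05 and any fold change 13 of the 17 and 10 of the 19 were lower, while the genes called lower with UK5099 (NPM3, POLR1C, NOP56 and NOP16) were all among the 19. The difference between genes with and without the word was not tested.

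A wider list of 123 further ribosome biogenesis factors held 122 tested genes (POLR2F was not tested). In Sen(IR) 71 of them (58.2%) were called lower and 1 higher, with a median of -0.60, where 22.4% of all genes were lower and 24.8% higher. Their largest fall was in EXOSC9, a subunit of the RNA exosome, from 82.1 ± 8.68 CPM (SD, n = 3) in Prol to 17.8 ± 1.93 CPM (SD, n = 3) in Sen(IR), a log2 fold change of -2.2. EXOSC9 shares 5.39% of its exon bases with CCNA2, the cyclin A2 gene. The gene that rose was BUD23, the methyltransferase of 18S rRNA, from 45.5 ± 5.13 to 68.7 ± 2.4 CPM (SD, n = 3 each), a log2 fold change of 0.59.

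With UK5099 6 of the 122 (4.92%) were called lower than in Sen(IR) and 1 (0.82%) higher, shares below the 12.1% and 8.76% of all genes. The median was -0.14. Without the limit on fold change 47 of the 122 (38.5%) were lower at an adjusted p under 0.05, against 23.5% of all genes. This count too is reached more easily by the 122, with a median SE of 0.0708 against 0.103 for all genes tested. BRIX1, a factor of large subunit assembly, had the largest fall, from 89.9 ± 1.72 to 52.2 ± 1.65 CPM (SD, n = 3 each), with a log2 fold change of -0.78. POLR2H, a subunit shared by all 3 nuclear RNA polymerases, rose. Its libraries spanned 17.8 to 21.9 CPM in Sen(IR) and 28.9 to 32.9 CPM with UK5099, and its log2 fold change was 0.61. With CTPI2 none of the 122 was called by edgeR or DESeq2, and 1 had an unadjusted p under 0.05 in edgeR and 0 in DESeq2. UK5099 against CTPI2 gave 6 lower (4.92%, against 11.7% of all genes) and POLR2H higher at 0.55. EXOSC5 had the largest fitted fall at -0.79 (SE 0.235), uncertain at levels of 0.93 to 1.71 CPM with UK5099. BRIX1 was close to it at -0.72 (SE 0.0586).

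Of 9 assembly factors of snoRNPs, 5 (55.6%, against 22.4% of all genes) were called lower in Sen(IR), the ATPase RUVBL2 most at -1.21. RUVBL2 was also the 1 gene of this list called with UK5099 (11.1%, against 12.1% of all genes called lower), at 27.0 ± 1.74 CPM (SD, n = 3) against 40.4 ± 1.51 CPM (SD, n = 3) in Sen(IR), a log2 fold change of -0.58. None of the 9 was called with CTPI2 by edgeR or DESeq2, and none had an unadjusted p under 0.05 in either tool.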

How the data were processed

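RNA was sequenced from 12 libraries of MRC5 cells. Per the labels and methods, the authors used Trimmomatic 0.36 for trimming, STAR 2.5.2b for alignment to GRCh38 and featureCounts of Subread 1.5.2, which counted unique reads on the exons of each gene. The deposited table holds these raw counts without normalization, and strandedness is not given in the sources used here. All 12 columns were mapped to their groups by label.

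Counts were fitted in R 4.3.3 with edgeR 4.0.16 (filterByExpr, TMM, glmQLFit and glmQLFTest) over all 12 libraries, with Benjamini-Hochberg adjustment over 16251 genes. CPM and RPKM (union of exons) were computed with TMM-scaled library sizes. The SE is the absolute log2 fold change over the square root of F. Positions, exon overlaps and lengths came from GENCODE v44, in which 56410 of the 57500 identifiers were found. The fit was tested on simulated counts.

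Library totals ran from 20597736 to 28245693 counts. All 42 genes could be named by role, with full statistics for MYC and, per comparison, the 5 largest called changes in each direction. From each further list the largest called change in each direction could be named. The genes and lists were chosen with earlier results of these data known. Genes outside this rule, and the examples with values in the text, were picked after their values were seen.

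The alternatives were DESeq2 1.42.0, upper-quartile or RLE scaling, no filter, only the 2 compared groups, a replicate block, unadjusted p, other fold limits, the longest transcript as the length, CANNTG as the word and each library left out. Protein features were not analysed here.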

Additional observations from a re-analysis of the deposited data

How the results depend on the processing

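DESeq2, RLE scaling, no filter on low counts, a fit of only the 2 compared groups and the unadjusted p left every count of called genes among the 42 within 1.5 times its value. Upper-quartile scaling moved the median of all genes in Sen(IR) against Prol to 0.135 and that of the 42 to -0.63, with 31 genes lower, and left 1 gene lower in UK5099 against CTPI2. There MYC, NOP56 and MYBBP1A were at -0.49, -0.49 and -0.47, and POLR1C in senescence was at -0.40. Raising the limit on absolute log2 fold change to 1 left 11 of the 42 lower in senescence, 0 with UK5099 against Sen(IR) and 1 against CTPI2. The further factors then numbered 20 lower and 0 higher in senescence, and 0 in each direction in both comparisons of UK5099. Without a fold limit 27 and 29 of the 42 were lower with UK5099 against Sen(IR) and CTPI2, as given above. Of the 122 further factors tested, 101 (82.8%, against 34.5% of all genes) were lower in senescence and 5 higher. With UK5099 against Sen(IR) 47 (38.5%, against 23.5% of all genes) were lower and 7 higher. Against CTPI2 50 (41.0%, against 23.4% of all genes) were lower and 7 higher. Over all 16251 genes tested 5547, 3557 and 3429 were higher in these comparisons, in the same order. CANNTG in place of CACGTG was found in 29 genes.

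With each library left out in turn the 42 gave 35 to 37 genes lower in senescence, 4 to 6 with UK5099, 0 with CTPI2 and 1 to 5 in UK5099 against CTPI2 (1 without Sen(IR)+CTPI2 replicate 2). The further factors gave 68 to 72, 5 to 9, 0 and 4 to 8 lower, and POLR2H was called higher against CTPI2 in 0 to 1 (not without Sen(IR)+CTPI2 replicate 2 or Sen(IR)+UK5099 replicate 2). The sign turned when a library was left out for uncalled genes near 0: RRP12 in senescence (-0.04 to 0.05), HEATR1 (-0.0 to 0.04) and POLR1A (-0.02 to 0.08) with UK5099, and MYC (-0.02 to 0.08) and NPM3 (-0.03 to 0.11) with CTPI2. In all, 594 of 624 refits of named genes kept the direction and the call, 14 lost a call, 7 gained one and 9 changed sign. The causes were not tested. No pairing of libraries by replicate number was seen. Deviations of libraries with the same number correlated by -0.0145 to 0.0423, which with 3 libraries a group cannot exclude pairing. A replicate block gave 37, 4, 0 and 4 called genes in the 4 comparisons. With 3 libraries a group, differences near the fold limit are not resolved.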

Other observations

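Of 12 partners and antagonists of MYC 11 were tested (MYCN was not). In Sen(IR) against Prol 4 (36.4%) were called higher and 2 (18.2%) lower, where 24.8% and 22.4% of all genes were, so with 11 genes the counts were near the background. The median log2 fold change was 0.38. MXI1 and MXD4, which pair with MAX and oppose MYC, were called higher. MXI1 was at 8.07 ± 1.33 CPM in Prol and 30.3 ± 1.61 CPM in Sen(IR) (SD, n = 3 each), a log2 fold change of 1.91. MXD4 went from 34.1 ± 5.49 to 88.9 ± 4.32 CPM (SD, n = 3 each), a log2 fold change of 1.39. MXI1 and MXD4 are named after their values were seen, since MYCL had the largest fitted change. MXD3 was called lower at -1.95, from 5.1 ± 0.143 to 1.31 ± 0.0741 CPM, and shares 43.73% of its exon bases with PRELID1 and RAB24. MYCL, a relative of MYC, was at 0.0372 to 0.215 CPM in Prol and 0.4 to 0.853 CPM in Sen(IR). It was called higher in senescence, with a fitted log2 fold change of 2.58 (SE 0.614, adjusted p = 0.000793) that is uncertain at so few counts. Its levels were 1.4 to 2.94 CPM with UK5099. It was the 1 gene of this list called with UK5099, with log2 fold changes of 1.83 (SE 0.378, adjusted p = 0.0004) relative to Sen(IR) and 2.25 (SE 0.39, adjusted p = 6.3e-05) relative to CTPI2, at these low counts. With CTPI2 none was called by edgeR or DESeq2, and none had an unadjusted p under 0.05 in either tool.

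Of 14 long noncoding RNAs that host snoRNAs in their introns, 5 (35.7%) were called lower and 2 (14.3%) higher in senescence, against 22.4% and 24.8% of all genes. SNHG3 went from 64.0 ± 9.8 to 18.2 ± 1.54 CPM (SD, n = 3 each), a log2 fold change of -1.82, and shares 10.96% of its exon bases with other genes, RCC1 among them. SNHG8 went from 23.5 ± 1.22 to 42.3 ± 1.35 CPM (SD, n = 3 each), a log2 fold change of 0.84, with 39.58% of its exon bases shared, PRSS12 among the genes. With UK5099 the list gave 1 higher and 1 lower (7.14% each), against 8.76% and 12.1% of all genes. SNHG12 was higher at 9.38 ± 0.738 against 6.41 ± 0.501 CPM in Sen(IR) and SNHG17 lower at 2.39 ± 0.175 against 3.51 ± 0.394 CPM (SD, n = 3 each). SNHG17 was also called lower against CTPI2, at -0.62. With CTPI2 none of the 14 was called by edgeR or DESeq2, and none had an unadjusted p under 0.05 in either tool.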
